A study of Mus musculus with 5 samples.

Results

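Transcripts of 41 nuclear receptor genes were followed in mouse embryos at the 2-cell stage, cultured with or without PNMC. The genes were chosen by name from 32285 rows of the deposited expression table: steroid, thyroid hormone, retinoid, lipid-sensing and orphan receptors. All 41 names were found, and 21 of them had a value of 1 or more in 2 or more of the 5 libraries, which is called detected here. According to the labels, oocytes of superovulated females aged 6 to 9 weeks were fertilised in vitro for about 6 h with sperm of males aged 12 to 16 weeks. Fertilised eggs were then drawn at random and cultured for 24 h in KSOM, an embryo culture medium. The PNMC group (3 libraries) had 25 nM PNMC in the medium, and the control group (2 libraries) had an equal volume of the solvent DMSO. The labels give no strain and do not spell out PNMC. They do not say how many embryos a library held or whether libraries came from separate cultures, so every p-value here is set against a spread between libraries that may be purely technical. The libraries are bulk samples, in which fewer cells of a type and less RNA per cell cannot be told apart.

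Nuclear receptors are transcription factors that bind DNA through a zinc finger domain, and many of them are switched by a small lipid-soluble ligand held in a second domain. Steroid receptors wait with chaperones and act as homodimers. Thyroid hormone, retinoic acid, vitamin D, oxysterol and fatty acid receptors act mostly as heterodimers with a retinoid X receptor (RXR), and orphan receptors such as the REV-ERB and ROR pairs bind DNA as monomers or dimers. Bound receptors recruit coactivators that acetylate or methylate chromatin, or corepressors built around NCoR and HDAC3. In the 2-cell embryo, transcripts stored by the oocyte are being cleared while transcription of the embryo's own genome begins, so a transcript there can be maternal, embryonic or both.

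All 18 listed markers of oocytes and 2-cell embryos were detected, with summed values from 26868 to 27047 in controls and from 27211 to 30561 after PNMC. Zbed3, Tcl1, Btg4 and Dppa3 had the highest values of the list in every library, so the sum follows mainly these genes. Zbed3 stood at 12538 and 12076 in the controls and 13257, 11593 and 14392 after PNMC. Tcl1 stood at 5648 and 5529 in the controls and 6253, 6678 and 6444 after PNMC, higher in all PNMC libraries. Of 18 cumulus and granulosa cell markers 3 were detected, namely Cyp19a1, Tnfaip6 and the receptor gene Nr5a2. Their list summed to between 30.4 and 37.6 in controls and between 29.99 and 34.3 after PNMC. Most of each sum was Nr5a2 (22.0 and 27.1 in the controls, 23.3, 23.0 and 27.9 after PNMC). Nr5a2 is also known as a regulator of genome activation, so the sum does not measure cumulus and granulosa cells alone. Ptx3, Inhba, Inhbb, Foxl2 and Amh were listed at 0 in every library. Of the other lists, 2 of 10 sperm markers, 4 of 8 oviduct epithelium markers and 3 of 10 blood and immune markers were detected. The oviduct markers detected were Krt8, Krt18, Epcam and Cdh1, while Ovgp1, Foxj1, Muc1 and Pax8 were not detected. Epcam had the highest values of them, 54.6 and 52.8 in the controls and 43.6, 82.9 and 45.6 after PNMC. Whether the embryos themselves express these 4 genes was not tested, so the count does not measure oviduct cells alone. Blood and immune markers summed to 25.7 and 25.9 in controls and to between 20.2 and 22.6 after PNMC. Ighm stood at 15.2 and 16.6 in the controls and 9.94, 9.32 and 12.1 after PNMC, lower in all PNMC libraries. Cd68, a macrophage marker, stood at 2.23 and 0.852 in the controls and 4.52, 3.92 and 3.83 after PNMC, higher in all of them, and Hba-a1 overlapped between the groups. The part of these in the receptor values was not tested. Column totals ranged from 446010 to 454548, the depth behind them is unknown, and control library 2 listed the most genes above 0 (18595, against 17408 to 17635 in the others).

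Values below are as deposited, in the order of the library numbers, and changes are differences in mean log2(value + 1), PNMC minus control. The unit of the table is not stated, so listed values of different genes cannot be compared per length.

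No receptor passed the test of PNMC against control. Of the 21 detected receptors, 0 had an adjusted p under 0.05 with limma, where 0% of all 12734 tested genes did, and adjusted p-values ran from 0.986 to 0.996. None of the 21 reached an unadjusted limma p under 0.05 either, against 4.99% of all tested genes, and the lowest was 0.0646. Mean log2 values were lower after PNMC in 14 receptors and higher in 7, and the share of lower ones was 66.7% against 56.9% of all tested genes. The median change in log2(value + 1) was -0.06 over the receptors and -0.05 over all tested genes. The medians lay further apart at a pseudocount of 0.1 (-0.18 over the receptors, -0.06 over all tested genes) and without control library 1 (-0.19 and -0.07). The PNMC and control values did not overlap in 6 receptors, or 28.6%, beside 19.9% of all tested genes. Nr3c1, Esrrg and Pparg lay above both controls in all PNMC libraries, where 7.97% of all tested genes did. Thrb, Nr1d2 and Nr2e3 lay below both controls in all of them, where 11.9% did. With only 1 control left, the groups were apart in 12 of 20 receptors (without control library 1, where 50.3% of all genes were apart) and in 10 of 20 (without control library 2, 52.3%).

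**Figure D1:**
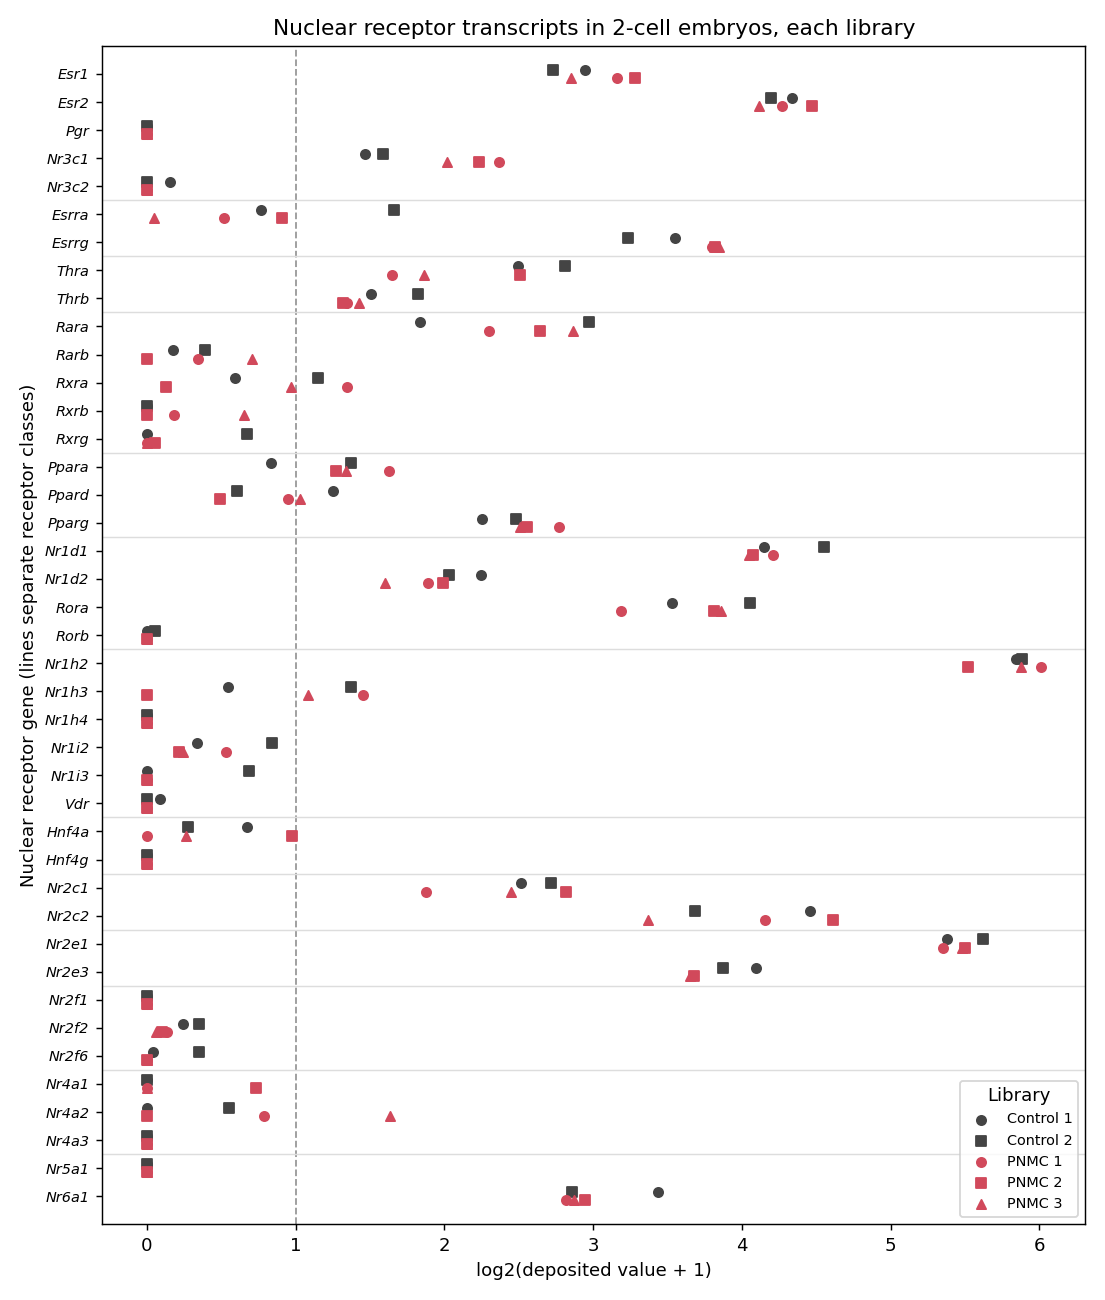
Each row is 1 of the 41 nuclear receptor genes, the x axis is log2(deposited value + 1), and each point is 1 library (grey for the 2 controls, red for the 3 PNMC libraries, marker shape for the library number); the dashed line stands at a deposited value of 1. Receptors such as Nr1h2 and Nr2e1 sit far to the right of the line in all libraries, 20 receptors have at most 1 library at or past it, and the red and grey points of Nr3c1, Esrrg and Nr2e3 are apart.

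The hexamer AGGTCA, the half-site that many nuclear receptors bind, was searched for on both strands in the 250 bases before annotated gene starts (RefSeq sequences, build GRCm38.p6, which is not the build of the deposited table). Windows were at hand for 37 of the 41 receptors, and none for Nr3c1, Thra, Hnf4g and Nr5a1. The half-site, as AGGTCA or its reverse complement TGACCT, stood in 8 of their 55 windows (14.5%) and in 14% of all 32851 windows. Among the 6 receptors whose groups did not overlap, 5 had a window and 3 of those, Nr1d2, Thrb and Pparg, held the half-site in at least 1 window. Counted in the same way by gene, 15.8% of all genes with a window held it, as did 5 of the 19 detected receptors with one (26.3%). By window it was 6 of 32 for the detected receptors (18.8%). A gene with more windows has more room for a match, and whether the half-site goes with group separation was not tested. For Nr1d2, Thrb and Pparg 1 window each is printed, because the groups of these genes did not overlap. The half-site is in capitals, and each sequence reads 5′ to 3′ on the gene's strand. A match is a description of the letters only.
Nr1d2, chr14:18239107-18239356, minus strand: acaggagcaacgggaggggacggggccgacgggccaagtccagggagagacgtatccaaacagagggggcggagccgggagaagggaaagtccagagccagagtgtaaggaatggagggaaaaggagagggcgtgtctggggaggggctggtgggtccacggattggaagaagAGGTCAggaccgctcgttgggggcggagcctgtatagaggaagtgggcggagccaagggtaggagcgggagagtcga
Thrb, chr14:17660710-17660959, plus strand: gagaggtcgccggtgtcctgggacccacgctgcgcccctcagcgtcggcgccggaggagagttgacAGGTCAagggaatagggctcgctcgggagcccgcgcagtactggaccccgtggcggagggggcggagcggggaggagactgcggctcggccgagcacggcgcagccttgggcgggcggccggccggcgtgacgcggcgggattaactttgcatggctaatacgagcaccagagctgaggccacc
Pparg, chr6:115360894-115361143, plus strand: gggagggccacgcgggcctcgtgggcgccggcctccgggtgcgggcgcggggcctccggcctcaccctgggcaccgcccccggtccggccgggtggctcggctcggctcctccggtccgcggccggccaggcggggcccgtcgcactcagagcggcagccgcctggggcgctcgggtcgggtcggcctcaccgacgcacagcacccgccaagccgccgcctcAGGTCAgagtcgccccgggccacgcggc
In all 3 windows the half-site ran in the direction of the gene. Among the other detected receptors, both copies in Nr6a1 ran against the gene, and Rxra held 1 copy in each direction. The windows of Esrrg and Nr2e3 held no such letters, and Pparg held the half-site in a second window, at chr6:115362099-115362348.

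Among the steroid receptors, the glucocorticoid receptor gene Nr3c1 had the largest positive change of the 21 detected receptors. Nr3c1 stood at 1.77 and 2.01 in the controls and 4.16, 3.69 and 3.04 after PNMC. All 3 PNMC libraries thus lay above both controls, and the change in log2(value + 1) was 0.68 (95% interval -0.05 to 1.40), with an unadjusted limma p of 0.0646 and an adjusted one of 0.986. That change was larger than the range within either group, as it was for 3 of the 21 receptors and for 10.4% of all tested genes. Leaving out 1 library at a time moved it between 0.59 and 0.77. Esr2, which encodes estrogen receptor beta, was listed at 19.2 and 17.3 in the controls and 18.3, 21.2 and 16.4 after PNMC. The lowest and the highest value were both PNMC libraries, and the change was 0.02 (95% interval -0.45 to 0.49). Esr1, for estrogen receptor alpha, was listed at 6.71 and 5.63 in the controls and 7.95, 8.73 and 6.21 after PNMC. PNMC library 3 fell between the controls, the other PNMC libraries lay above them, and the change was 0.26 (95% interval -0.34 to 0.86). Pgr, the progesterone receptor gene, was listed at 0 in every library, and Nr3c2, for the mineralocorticoid receptor, only in control library 1 above 0 (0.112). Cyp19a1, the enzyme that makes estrogens and a granulosa cell marker, stood at 3.96 and 2.46 in the controls and 3.37, 4.03 and 2.69 after PNMC beside these estrogen receptor values.

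The estrogen-related receptors resemble estrogen receptors in sequence, have no known natural steroid ligand and regulate energy metabolism genes. Esrrg stood at 10.7 and 8.40 in the controls and 12.9, 13.1 and 13.4 after PNMC. The 3 PNMC values lay within 0.5 of each other and above both controls, and the change was 0.43 (95% interval -0.09 to 0.94) with an unadjusted limma p of 0.0957. It ranged from 0.27 without control library 2 to 0.59 without control library 1. Esrra was not detected by the rule, since only control library 2 passed 1, and stood at 0.705 and 2.17 in the controls and 0.433, 0.876 and 0.0356 after PNMC. Its exons share 73 bases with those of Trmt112 on the opposite strand in GENCODE M21, and these libraries keep no strand. Trmt112 was listed at 137 and 179 in the controls and 151, 178 and 184 after PNMC, so reads of that stretch could come from either gene.

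Both thyroid hormone receptor genes had lower mean values after PNMC. Thra, for receptor alpha, stood at 4.63 and 6.00 in the controls and 2.13, 4.69 and 2.63 after PNMC. PNMC library 2 fell just above control library 1 while PNMC libraries 1 and 3 lay below both controls, and the change, the most negative of the 21, was -0.65 (95% interval -1.40 to 0.11) with an unadjusted limma p of 0.0883. Without PNMC library 2 the change was -0.90 and the unadjusted limma p was 0.0285, with an adjusted p of 0.805. Thrb, for receptor beta, stood at 1.84 and 2.54 in the controls and 1.54, 1.499 and 1.68 after PNMC. All PNMC values lay below both controls within a narrow band, and the change was -0.30 (95% interval -1.08 to 0.48). The 3′ ends of Thra and Nr1d1 run into each other on opposite strands and share 263 exonic bases, so part of the reads of each could come from the other.

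The retinoid receptors bind retinoic acid (RAR) or serve as the common partner (RXR). Rara, for RAR alpha, stood at 2.56 and 6.84 in the controls and 3.92, 5.25 and 6.28 after PNMC. The controls themselves were the lowest and the highest of the 5 libraries, and the change of 0.20 (95% interval -0.59 to 0.99) was smaller than the range between them. Without control library 1 it was -0.37 and without control library 2 it was 0.77. Rarb was not detected, with a highest value of 0.631 in PNMC library 3. Its exons share 1793 bases with those of Top2b on the opposite strand. Top2b was listed at 1.19 and 1.41 in the controls and 0.659, 1.43 and 1.51 after PNMC. The RXR genes were close to the floor of the table. Rxra passed the detection rule with 0.508 and 1.22 in the controls and 1.54, 0.0951 and 0.962 after PNMC, a change of -0.06 (95% interval -1.08 to 0.97) in which PNMC held both the lowest and the highest library. Rxrb was listed at 0 in both controls and in PNMC library 2 and at 0.134 and 0.575 in the other PNMC libraries. Rxrg was above 0 in control library 2 (0.599) and PNMC library 2 (0.0371). A low listed value bounds neither the protein nor a maternal store of it.

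The peroxisome proliferator-activated receptors sense fatty acids and pair with RXR. Pparg stood at 3.77 and 4.59 in the controls and 5.82, 4.87 and 4.68 after PNMC. All 3 PNMC values lay above both controls, although PNMC library 3 exceeded control library 2 by less than 0.1, and the change was 0.24 (95% interval -0.41 to 0.89). Ppara stood at 0.780 and 1.59 in the controls and 2.09, 1.42 and 1.54 after PNMC. Control library 1 was the lowest, control library 2 lay among the PNMC values, and the change was 0.31 (95% interval -0.53 to 1.15). Ppard stood at 1.38 and 0.525 in the controls and 0.935, 0.404 and 1.05 after PNMC, with a change of -0.10 (95% interval -1.04 to 0.84) and overlapping groups.

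Receptors of the circadian loop were present with overlapping or slightly lower values. Nr1d1 encodes REV-ERB alpha, a haem-sensing repressor of the clock gene Bmal1, and stood at 16.8 and 22.5 in the controls and 17.5, 15.9 and 15.6 after PNMC. Control library 2 was the highest, control library 1 lay inside the PNMC range, and the change was -0.24 (95% interval -0.72 to 0.24). Without control library 2 it was -0.04. Nr1d2, for REV-ERB beta, stood at 3.74 and 3.08 in the controls and 2.71, 2.98 and 2.03 after PNMC. Its PNMC values all lay below both controls, and the change was -0.31 (95% interval -1.04 to 0.42). Rora, for the activator ROR alpha that shares binding sites with the REV-ERBs, stood at 10.6 and 15.6 in the controls and 8.12, 13.1 and 13.5 after PNMC. Its highest value was control library 2 and its lowest PNMC library 1, and the change was -0.17 (95% interval -0.78 to 0.44). Exons of Rora share 82 bases with the antisense gene Gm15511, which was listed at 1.15 and 1.49 in the controls and 1.29, 2.47 and 2.06 after PNMC. Rorb was listed above 0 only in control library 2 (0.0368).

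Among the sensors of oxysterols, bile acids and foreign compounds, Nr1h2 had the highest listed value of the 41 in every library. It encodes LXR beta, the broadly expressed oxysterol receptor, and stood at 56.3 and 57.9 in the controls and 63.4, 44.9 and 57.8 after PNMC. The controls agreed closely, the PNMC libraries spread to both sides of them, and the change was -0.06 (95% interval -0.45 to 0.33). Its relative Nr1h3, for LXR alpha, was near 1 and stood at 0.457 and 1.59 in the controls and 1.73, 0 and 1.12 after PNMC, a change of -0.11 (95% interval -1.21 to 0.98). The receptors that respond to foreign compounds were not detected. Nr1i2, for the pregnane X receptor, reached at most 0.792 (control library 2), and Nr1i3, for the constitutive androstane receptor, was above 0 only in control library 2 (0.611). Exons of Nr1i3 share 3304 bases with those of Tomm40l on the opposite strand. Tomm40l was also above 0 only in control library 2 (0.110). Nr1h4, the bile acid receptor FXR, was listed at 0 in every library, and Vdr, the vitamin D receptor, only in control library 1 above 0 (0.0629). Hnf4a, a liver and gut receptor, reached at most 0.963 in PNMC library 2, and Hnf4g was listed at 0 throughout.

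Orphan receptors of the NR2 and NR6 families made up much of the rest. Nr2e1, known as tailless and as a regulator of neural stem cells, stood at 40.6 and 48.1 in the controls and 39.8, 44.3 and 43.7 after PNMC. The lowest value was PNMC library 1, the highest control library 2, and the change was -0.05 (95% interval -0.43 to 0.32). Nr2e3, known from photoreceptor development, stood at 16.1 and 13.6 in the controls and 11.8, 11.8 and 11.6 after PNMC. The PNMC libraries lay within 0.3 of each other and below both controls, and the change was -0.32 (95% interval -0.81 to 0.18) with an unadjusted limma p of 0.191. Exons of Nr2e3 share 61 bases with the long noncoding RNA gene Gm15507 on the same strand. Gm15507 was listed at 122 and 106 in the controls and 128, 85.3 and 129 after PNMC, and the part of shared reads in the Nr2e3 values was not tested.

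Nr2c1 and Nr2c2 encode the testicular receptors TR2 and TR4. Nr2c1 stood at 4.72 and 5.59 in the controls and 2.68, 6.05 and 4.45 after PNMC, and Nr2c2 at 21.0 and 11.8 in the controls and 16.8, 23.5 and 9.34 after PNMC. Both groups of Nr2c2 held values near the top and near the bottom of its range, and its change was -0.02 (95% interval -0.75 to 0.70). It was -0.41 without control library 2 and 0.36 without control library 1. The exons of Nr2c2 share 4590 bases with those of Mrps25 on the opposite strand, and Mrps25 was listed at 8.67 and 13.3 in the controls and 11.2, 9.88 and 11.6 after PNMC. Nr6a1 encodes germ cell nuclear factor, a repressor known from oocytes and early embryos, and stood at 9.84 and 6.25 in the controls and 6.04, 6.72 and 6.33 after PNMC. Control library 1 was the highest and the other 4 libraries lay close together, so the change of -0.27 (95% interval -0.88 to 0.35) became 0.02 without it. Nr5a1, for steroidogenic factor 1 of the gonads and adrenal gland, was listed at 0 in every library.

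The remaining receptors were not detected. The COUP-TF genes act in mesoderm and nervous system development. Of them, Nr2f1 was listed at 0 throughout, Nr2f2 ran from 0.0460 to 0.274 and Nr2f6 was above 0 only in the controls (0.0287 and 0.275). Exons of Nr2f6 share 1622 bases with those of Ocel1 on the opposite strand. Ocel1 was listed at 0 and 0.233 in the controls and 0.0101, 0 and 0.113 after PNMC. Nr2f2 stood at 0.184 and 0.274 in the controls and 0.0998, 0.0735 and 0.0460 after PNMC. The NR4A genes are immediate early genes in many tissues. Nr4a3 was listed at 0 throughout, Nr4a1 was above 0 only in PNMC library 2 (0.665), and Nr4a2 stood at 0 and 0.464 in the controls and 0.730, 0 and 2.10 after PNMC. Nr4a2 and Esrra were the 2 undetected receptors that passed 1 in a library. In all, 6 of the 20 undetected receptors were listed at 0 in every library, 12 were above 0 but under 1, and 5 were above 0 in 1 library only. Since depth is unknown, a value of 0 may be undetected or a failed estimate.

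The number of receptors at 1 or more overlapped between the groups. At a value of at least 1 there were 18 and 21 receptors in control libraries 1 and 2, and 20, 18 and 21 in the PNMC libraries. Above 0 there were 29 and 31 in the controls and 27, 26 and 28 after PNMC, so the PNMC libraries listed fewer receptors, and fewer genes in all, than either control. The values of the 41 receptors summed to 236 and 248 in the controls and to 234, 237 and 227 after PNMC. Of the 21 detected receptors, 17 were at 1 or more in all 5 libraries, and Nr1h2, Nr2e1, Nr1d1, Esr2 and Nr2e3 were at 10 or more in all of them.

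The intervals say how large a change these libraries could miss. For 13 of the 21 receptors (61.9%, against 61.4% of all tested genes) the 95% interval of the change lay within 1 unit of log2(value + 1) in either direction. It was narrowest for Nr2e1 and Nr1h2 and widest for Nr1h3, which ran from -1.21 to 0.98. For the 8 others, Nr3c1, Thra, Thrb, Rxra, Ppara, Ppard, Nr1d2 and Nr1h3, a change of more than 1 unit in at least 1 direction was within the interval. Only the upper limit passed 1 unit for Nr3c1 and Ppara, and only the lower limit for Thra, Thrb, Nr1d2, Rxra, Ppard and Nr1h3. Mean control values of Rxra, Ppard and Nr1h3 were 0.864, 0.951 and 1.02. Complete loss there is a fall of about 1 unit or less, so the interval says little about their decreases. The plot of changes and intervals shows them receptor by receptor.

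**Figure D2:**
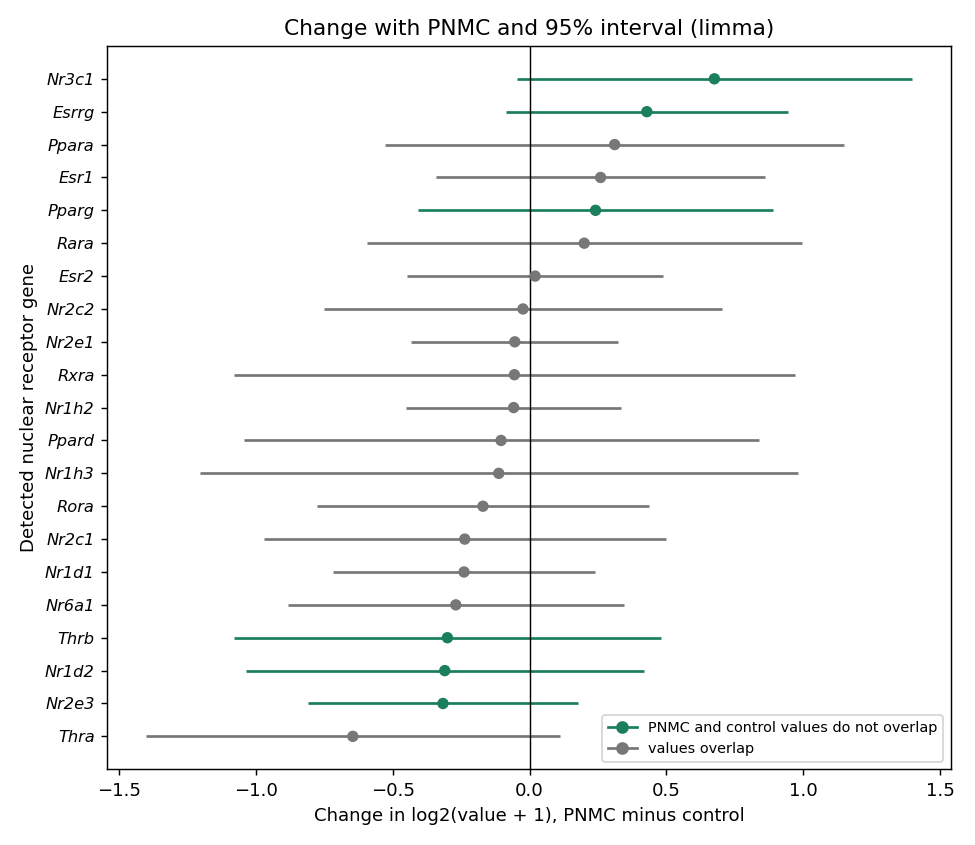
Each row is 1 of the 21 detected receptors, ordered by its change; points give the change in log2(value + 1), PNMC minus control, and lines limma's 95% interval, in green where the groups' values did not overlap. All 21 intervals include 0, and those of Nr3c1, Esrrg and Thra reach least far past it.

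**Figure D3:**
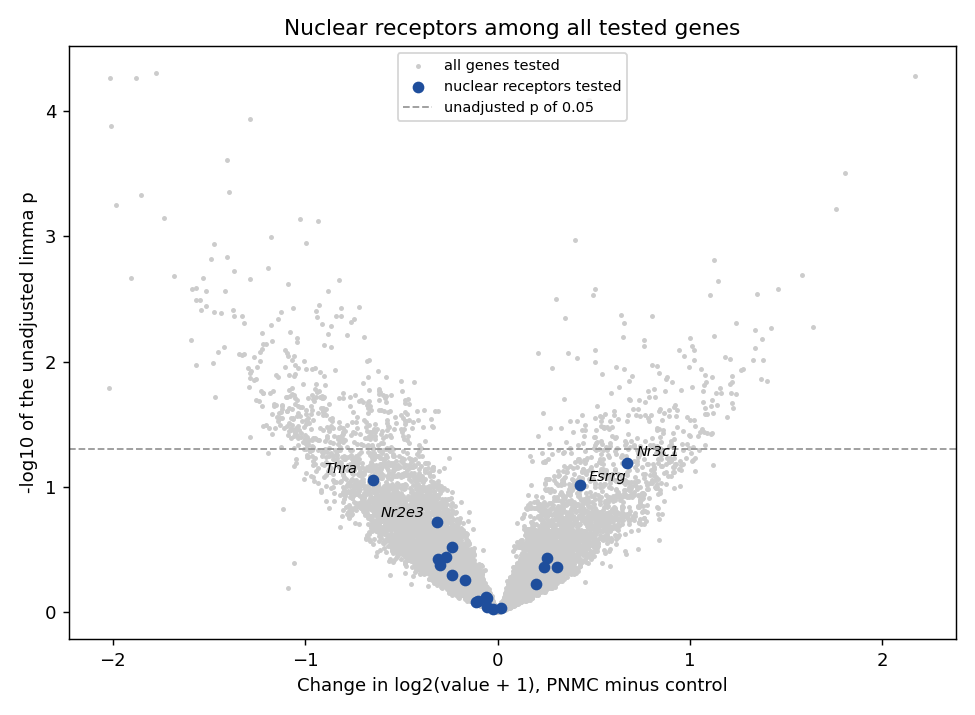
Grey points are the 12734 tested genes and blue points the 21 detected receptors, with the change in log2(value + 1) on the x axis and -log10 of the unadjusted limma p on the y axis. No blue point lies above the dashed line, drawn at an unadjusted limma p of 0.05, and that of Nr3c1 is closest to it.

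**Figure D4:**
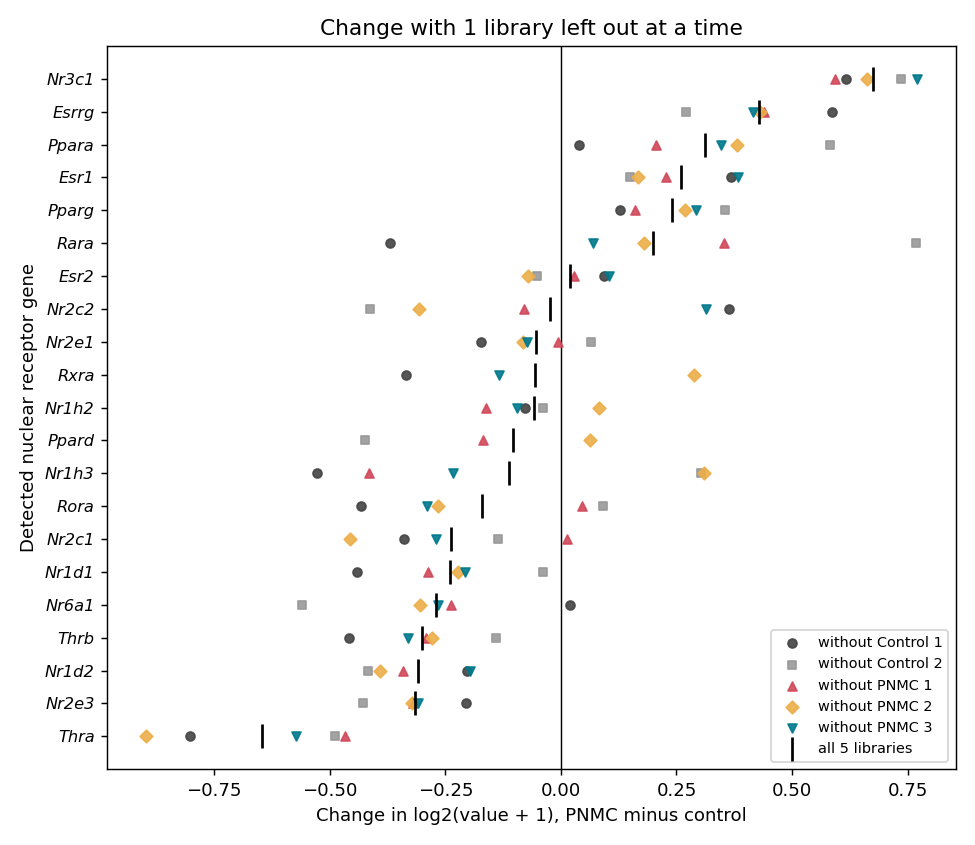
Each row is 1 detected receptor, coloured points give the change in log2(value + 1) with 1 library left out, and black bars the change over all 5 libraries. Points of Nr3c1, Esrrg, Thra, Nr2e3, Nr1d2, Thrb, Esr1, Ppara, Pparg and Nr1d1 stay on 1 side of 0, while those of the other 11 receptors cross it.

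Genes that work with the receptors were examined in 7 lists of 140 names, of which 91 genes were tested. None had an adjusted limma p under 0.05. The unadjusted limma p was under 0.05 for 3 of them (Gps2, Slc16a10 and Pdzk1), all lower after PNMC, where 4.99% of all tested genes were under it. The groups did not overlap in 26 of 91 (28.6%, beside 19.9% of all tested genes). Their median change was -0.06, beside -0.05 over all tested genes. Of the 7 list medians, that of the coactivators was below 0 under all 13 processing alternatives. The median of all tested genes was itself below 0 under every alternative except median scaling, which moved it from -0.05 to 0.03. The other 6 list medians crossed 0 under at least 1 alternative. That of steroid, thyroid hormone and vitamin D handling did so only under median scaling.

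Coactivators had 21 of 26 tested members lower and 5 higher, where 56.9% of all tested genes were lower, with a median change of -0.15, and 7 were without overlap (26.9%). Med1, the Mediator subunit that contacts ligand-bound receptors, stood at 36.8 and 31.7 in the controls and 25.9, 21.1 and 31.4 after PNMC, all PNMC libraries lying below both controls. Ccar2, a regulator of receptor transcription, stood at 4.11 and 2.02 in the controls and 0.684, 0.590 and 2.24 after PNMC. Ddx5, an RNA helicase and coactivator, had the highest mean of the list, 198 ± 26.1 in the 2 controls and 168 ± 12.7 in the 3 PNMC libraries (SD). Corepressors were evenly divided, 6 higher and 6 lower of 12 tested, with a median of -0.06. Without overlap were 6 of 12 (50%), beside 19.9% of all tested genes. Gps2, a subunit of the NCoR corepressor complex, stood at 19.4 and 19.6 in the controls and 11.4, 12.2 and 8.17 after PNMC. Its PNMC values lay well below both controls, a change of -0.84 (95% interval -1.36 to -0.31) with an unadjusted limma p of 0.00431 and an adjusted p of 0.868. Hdac3, the deacetylase of the same complex, stood at 3.98 and 6.17 in the controls and 3.57, 1.71 and 3.98 after PNMC, where PNMC library 3 and control library 1 were nearly equal. Sin3a averaged 98.2 ± 3.04 in the 2 controls and 90.4 ± 11.2 in the 3 PNMC libraries (SD).

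All 12 genes of the list of steroid receptor chaperones and their partners were tested, 6 higher and 6 lower. Their median was -0.03, and 3 were without overlap (25%, beside 19.9% of all tested genes). Fkbp5, a cochaperone and a well-known glucocorticoid target, stood at 357 and 340.2 in the controls and 407, 371 and 226 after PNMC. It was highest in PNMC library 1 and lowest in PNMC library 3, so its change of -0.10 (95% interval -0.52 to 0.31) became 0.16 without PNMC library 3. Stip1, which links HSP70 to HSP90, averaged 209 ± 50.5 in the 2 controls and 232 ± 8.78 in the 3 PNMC libraries (SD), and the ubiquitin ligase gene Stub1 averaged 11.8 ± 0.328 in the 2 controls and 9.23 ± 2.90 in the 3 PNMC libraries (SD).

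Retinoid supply and clearance genes had 5 higher and 4 lower among 9 tested of 18. Their median was 0.14, and 4 were without overlap (44.4%, beside 19.9% of all tested genes). Rdh10, which starts the making of retinoic acid from retinol, stood at 9.81 and 13.3 in the controls and 14.7, 18.0 and 15.2 after PNMC, all PNMC values being above both controls. Dhrs3, which reduces retinaldehyde back to retinol, stood at 178 and 157 in the controls and 184, 188 and 182 after PNMC, again with all PNMC values above both controls. Crabp2, which carries retinoic acid to its receptors, stood at 10.5 and 8.31 in the controls and 5.46, 8.12 and 6.95 after PNMC, with all PNMC values below. The unadjusted limma p was 0.0879 for Rdh10, 0.281 for Dhrs3 and 0.163 for Crabp2. The list's median was -0.15 without control library 1 and also -0.15 with a minimum of 5 in 2 libraries.

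Genes of steroid, thyroid hormone and vitamin D handling had 4 higher and 9 lower among 13 tested of 26 in the table. Their median was -0.05, and 2 were without overlap (15.4%, beside 19.9% of all tested genes). Slc16a10, a transporter of aromatic amino acids and thyroid hormone, stood at 5.44 and 8.29 in the controls and 3.79, 2.78 and 1.64 after PNMC. All PNMC libraries lay below both controls, a change of -1.09 (95% interval -1.86 to -0.33) with an unadjusted limma p of 0.00853 and an adjusted p of 0.967. Srd5a1, a steroid 5-alpha reductase gene, stood at 2.96 and 4.53 in the controls and 2.61, 1.89 and 1.23 after PNMC, and the related Srd5a3, with the highest mean listed value of the list, averaged 30.7 ± 3.66 in the 2 controls and 29.1 ± 3.37 in the 3 PNMC libraries (SD). Textbook receptor targets had 7 higher and 10 lower among 17 tested of 36 in the table, with a median of -0.05 and 4 without overlap (23.5%). Pdzk1, an estrogen-responsive scaffold gene, stood at 17.9 and 18.1 in the controls and 14.2, 8.14 and 13.3 after PNMC, with an unadjusted limma p of 0.0408 and an adjusted p of 0.973. Npas2, a clock gene repressed through REV-ERB sites, stood at 8.13 and 4.32 in the controls and 8.79, 7.58 and 11.7 after PNMC, where control library 1 lay among the PNMC values.

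Of 8 receptors of the superfamily outside the 41, Rarg, Nr5a2 and Esrrb were detected. Rarg, for RAR gamma, stood at 13.6 and 14.8 in the controls and 9.44, 8.44 and 11.9 after PNMC, all PNMC values lying below both controls, with a change of -0.49 (95% interval -1.02 to 0.04) and an unadjusted limma p of 0.0691. Nr5a2, known as a regulator of genome activation, stood at 22.0 and 27.1 in the controls and 23.3, 23.0 and 27.9 after PNMC, and Esrrb, a pluripotency factor, at 5.28 and 4.72 in the controls and 7.10, 6.90 and 3.24 after PNMC, both with overlapping groups.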

How the data were processed

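Libraries of 2-cell mouse embryos (2 control, 3 PNMC) were made with Smart-seq2, per the labels' protocols, a method that keeps no strand. The build GRCm39 and the tools HISAT2 2.0.5, Trimmomatic, DESeq2 1.16.1 and HTSeq stand in the submitters' processing notes, with no role given. Neither the annotation nor the tool behind the values is given in the sources used here. Per gene and library, the authors deposited a normalised signal whose unit is not stated. Among genes at 0 in at least 2 libraries, the smallest value above 0 was taken per gene. Its median fell from 0.275 (transcripts up to 600 bases, GENCODE M21) to 0.0311 (over 8000 bases). These low values thus fall with length, but levels of different genes are only listed, not tested.

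Columns were matched to samples by title. Genes with at least 1 in at least 2 libraries were kept (12734). Values were taken as log2(value + 1), a scale that understates changes of low genes, and PNMC was compared with control with limma 3.58.1 in R 4.3.3 (trend, robust, no covariate, two-sided), with Benjamini-Hochberg adjustment over all 12734 genes at 0.05. An exact rank test of 3 against 2 cannot go below a two-sided p of 0.2 and was not used. The design allowed for counts or normalised values, and the second applied, so DESeq2 was not run. The procedure was tested on 20 simulated datasets of 12734 genes, in which 200 genes averaging 2 or more on the log2 scale changed: 60.5% of 2-fold, 98.1% of 4-fold and 99.8% of 8-fold changes were recovered for PNMC against control, and 0.0698% of unchanged genes were called. Those rates do not cover genes averaging under 2, among them Nr3c1, Thrb, Nr1d2, Rxra, Ppara, Ppard and Nr1h3. They also rest on independent normal noise, with changes added on the log2(value + 1) scale. Receptors and lists were chosen with earlier results of these data known. All 41 receptors are named; of each other list, the 2 genes with the smallest p, the one with the highest mean and, for receptors outside the 41, each tested gene. Exon overlaps come from GENCODE M21 (GRCm38) and promoter windows from RefSeq (GRCm38.p6). Alternatives were other pseudocounts (0.1, 0.5), filters, scalings and variance models, each library left out, and a replicate block.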

Additional observations from a re-analysis of the deposited data

How the results depend on the processing

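Under 13 alternatives, no receptor tested passed the adjusted threshold (lowest limma adjusted p 0.712, Nr3c1), and none of the partner genes did. The count of receptors at an unadjusted limma p under 0.05 became 1 with no filter, quantile normalisation, median scaling or plain variances (Nr3c1 each time) and without PNMC library 2 (Thra). Over all genes the count of 0 became 1 without PNMC library 1, and ranged from 0 to 1 with 1 library left out. Detection gave 12 receptors at a minimum of 5. Groups were apart in 2 of 12 receptors at that minimum (18.7% of all genes), and in 7 to 12 with 1 library left out, when fewer libraries make separation easier: 7 of 20 without PNMC 1 (32.3% of all genes), 8 of 21 without PNMC 2 (34.6%), 7 of 20 without PNMC 3 (31.7%), 12 of 20 without control 1 (50.3%) and 10 of 20 without control 2 (52.3%). The median change of the receptors, -0.06, was -0.18 at a pseudocount of 0.1, -0.12 at 0.5 and -0.13 under the replicate block, where the median of all genes, -0.05, was -0.06, -0.05 and -0.04. It ran from -0.188 (without control 1; all genes -0.07) to -0.038 (without control 2; all genes -0.03) with 1 library left out.

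Of the 21 receptors, 10 kept their direction under every alternative that tested them (all 13 for 4 receptors; for the other 6 the minimum of 5 left them out) and 11 did not; the cause was not tested. Quantile normalisation (median of all genes -0.0022) turned Rxra (0.035), Ppard (0.0158) and Nr2c2 (0.0325). Median scaling, which moved the median of all genes to 0.03, turned Nr1h2 (0.0273), Nr2c2 (0.0564), Nr2e1 (0.0311) and, among partner genes, Srd5a3 (0.00467). With 1 library left out, changes ran from -0.0719 to 0.10 for Esr2 (turned without control 2 and PNMC 2), from -0.37 to 0.77 for Rara (control 1), from -0.33 to 0.29 for Rxra and from -0.42 to 0.0635 for Ppard (PNMC 2 in both), from -0.43 to 0.0909 for Rora (control 2, PNMC 1), from -0.16 to 0.0831 for Nr1h2 (PNMC 2), from -0.53 to 0.31 for Nr1h3 (control 2, PNMC 2), from -0.46 to 0.0144 for Nr2c1 (PNMC 1), from -0.41 to 0.36 for Nr2c2 (control 1, PNMC 3), from -0.17 to 0.0655 for Nr2e1 (control 2) and from -0.56 to 0.0202 for Nr6a1 (control 1). Likewise Esrrb ran from -0.0513 to 0.42 (PNMC 1, PNMC 2), Fkbp5 from -0.27 to 0.16 (PNMC 3), Nr5a2 from -0.13 to 0.16 (control 1, PNMC 3), Srd5a3 from -0.20 to 0.0385 (control 2) and Stip1 from -0.072 to 0.42 (control 2). The filter dropped Rxra without control library 2 and without PNMC library 1, so its range does not cover those fits. Likewise it dropped Ppard without control library 1 and without PNMC library 3. Where 1 control was left, its spread was assumed to be like that of the PNMC group.

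Libraries share the numbers 1 and 2, and nothing in the labels pairs them. Deviations from the group means correlated at -0.0585 for number 1 and -0.0433 for number 2. The replicate block, in which PNMC library 3 adds nothing to the contrast, called 0 genes and gave 0.31 for Nr2c2, 0.16 for Fkbp5 and -0.0717 for Nr5a2. Unknown depth limits what can be said of receptors at or near 0.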
